A study of Mus musculus with 3 samples.

Results

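The open chromatin around the genes of 6 endoderm transcription factors was examined: the GATA factors Gata4, Gata5 and Gata6 and the forkhead factors Foxa1, Foxa2 and Foxa3. A locus was the gene body plus 50 kb on each side, and every ATAC-seq peak whose window overlapped it was a member. Overlapping peaks of the 3 libraries were merged into regions, which gave 33 member regions among 33564 in the series. The control contributed 11 of its 16977 peaks, double-knockout (DKO) replicate 1 contributed 18 of 18268, and DKO replicate 2 contributed 25 of 26648.

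ATAC-seq marks accessible DNA by the insertion of sequencing adapters by the Tn5 transposase. Epithelial cells carrying the surface protein EpCAM were collected from small intestines of embryonic mice at E16.5 (days after conception), with 20000 cells per library. The control library came from an Hnf4g heterozygote (Hnf4gCrispr/+), and the 2 DKO libraries came from embryos with Shh-Cre, 2 floxed Hnf4a alleles and a CRISPR mutation on both Hnf4g copies (Shh-Cre; Hnf4af/f; Hnf4gCrispr/Crispr). All 3 libraries therefore carried at least 1 mutant Hnf4g allele, and whether the control carried a floxed Hnf4a allele or Cre is not given. Shh-Cre acts in cells that express Shh, which include the early gut epithelium, so Hnf4a is removed there and not in the whole embryo. How many embryos went into a library is not given, and differences between the DKO libraries may be technical.

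GATA factors are zinc-finger proteins that bind the core sequence GATA. GATA4 is known for proximal small-intestinal identity, GATA6 is expressed more widely along the gut epithelium, and GATA5 is the third family member of endoderm and heart. FOXA proteins are winged-helix pioneer factors that can bind nucleosomal DNA. FOXA1 and FOXA2 act in endoderm formation and in secretory cell types of the intestine, and FOXA3 is best known from liver. HNF4A and HNF4G are nuclear receptors that bind many of the same enhancers as these factors in endodermal tissues. The comparison asks whether peaks at the genes of these partner factors differ between cells with and without both HNF4 factors.

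The authors' score of a peak has no stated common scale across libraries, so each score was expressed as a percentile rank within its own list, where 100 is the strongest peak. An absent peak means that none was called. Read depth is unknown. A single control library gives no measure of the spread between controls, and permuting the 3 labels reaches no p below 0.333. No p-value is given, and the gap between the DKO libraries is the measure of replicate error. Over the 10355 regions called in all 3 libraries, the difference in rank between the DKO libraries had a standard deviation (SD) of 18.7 points. Intervals on shares are Wilson 95% intervals and cover counting error only.

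Of the 6 genes, 4 have a promoter entry in RefSeq (GRCm38.p6). The 250 bases before the first listed start of each are shown because they set the promoters that had a peak nearby in all libraries, Foxa1 and Foxa3, beside those of Foxa2 and Gata5, which did not. They read 5′ to 3′ toward the gene, and capitals mark matches to the motifs below.
Foxa1: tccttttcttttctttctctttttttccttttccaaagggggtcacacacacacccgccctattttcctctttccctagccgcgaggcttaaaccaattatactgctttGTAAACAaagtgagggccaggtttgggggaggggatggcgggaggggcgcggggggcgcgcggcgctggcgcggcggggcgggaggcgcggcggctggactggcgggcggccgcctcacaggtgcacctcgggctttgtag
Foxa3: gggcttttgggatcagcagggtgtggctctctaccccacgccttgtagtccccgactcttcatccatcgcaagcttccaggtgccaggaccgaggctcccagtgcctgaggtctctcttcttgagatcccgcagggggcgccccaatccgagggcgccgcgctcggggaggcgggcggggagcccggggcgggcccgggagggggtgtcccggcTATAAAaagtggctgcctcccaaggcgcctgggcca
Foxa2: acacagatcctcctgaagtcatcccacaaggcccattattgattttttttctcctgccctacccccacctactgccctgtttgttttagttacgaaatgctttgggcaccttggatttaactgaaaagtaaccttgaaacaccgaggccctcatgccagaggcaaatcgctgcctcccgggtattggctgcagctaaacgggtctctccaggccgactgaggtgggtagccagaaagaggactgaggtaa
Gata5: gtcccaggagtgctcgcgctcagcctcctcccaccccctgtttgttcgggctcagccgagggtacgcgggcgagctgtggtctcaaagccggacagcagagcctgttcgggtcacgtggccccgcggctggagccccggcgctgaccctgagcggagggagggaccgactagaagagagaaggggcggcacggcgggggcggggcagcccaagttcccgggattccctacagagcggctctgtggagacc

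Both strands were searched for 4 motifs. The forkhead core was spelled TGTTTNC. The site for GATA factors was spelled GATAAG, and the site for HNF4 was CAAAGTNCA. The last motif, the TATA box of core promoters, was spelled TATAAA. The spellings do not overlap one another in any printed match. The Foxa1 stretch held 1 forkhead match, on the reverse strand, 141 to 135 bases before the start. The Foxa3 stretch held 1 TATA match, 36 to 31 bases before the start. Neither the printed Foxa2 stretch nor the Gata5 stretch held a match to any of the 4, and none of the 4 printed stretches held the GATA or HNF4 letters. Foxa2 has 3 listed starts, and the stretch before the third held 1 TATA match, on the reverse strand, 208 to 203 bases before that start. Among 32851 mouse promoters of the same length, 17.8% held the forkhead core, 12.4% the TATA box, 6.55% the GATA site and 1.19% the HNF4 site. G and C made up 62.0% of the Foxa1 stretch, 68.8% of Foxa3, 50.8% of the printed Foxa2 stretch and 70.0% of Gata5, against a median of 52.4% over all promoters. The stretches before the second and the third Foxa2 start had 67.2% and 54.4%. GC-rich promoters were thus found both with and without a nearby peak.

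The 33 regions were first grouped by the libraries that called them. All 3 libraries called 6 regions (18.2%, interval 8.61 to 34.4%), against 30.9% over the series. The control alone called 4 (12.1%, 4.82 to 27.3%), against 13% over the series. Both DKO libraries without the control called 8, referred to as DKO-only regions (24.2%, 12.8 to 41.0%), against 16% over the series. Each of these intervals includes the share over all regions, and with 33 regions each is wide. With the 16977 top-scoring peaks of each library, referred to as equal list lengths, the loci had 6 DKO-only and 4 control-only regions. The lowest scores kept were then 10 in the control and 14 and 18 in DKO replicates 1 and 2. Some of the 33 regions, at Gata4, Gata6 and Foxa2, had no peak left at that setting, so these counts are not shares of 33. No share or interval was computed for the regions left, so the counts cannot be read against the series shares. The series shares turned in order, to 13.2% DKO-only and 20.7% control-only of 26752 regions. Regions called in a single library numbered 18 of 33, against 46.5% over the series, and 10 of the 18 came from DKO replicate 2, which has the longest list.

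The classes were unevenly spread over the genes. Of the 8 DKO-only regions, 4 were at Foxa1, 2 at Gata4, 1 at Gata5 and 1 at Foxa3, and none was at Gata6 or Foxa2. Of the 4 control-only regions, 2 were at Gata4, 1 at Gata5 and 1 at Foxa2. All 8 DKO-only regions lay outside the members' gene bodies, where 22 of the 33 regions were found. Some of the 8 lay inside or overlapped other genes (Rbbp8nl, Ttc6 and Mypop). The share of DKO-only regions outside gene bodies over the series was not computed, so this count describes these loci only. The 11 regions inside gene bodies comprised 3 called in all libraries, 2 called in the control only, 5 called in a single DKO library and 1 shared by the control and DKO replicate 2.

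**Figure D1:**
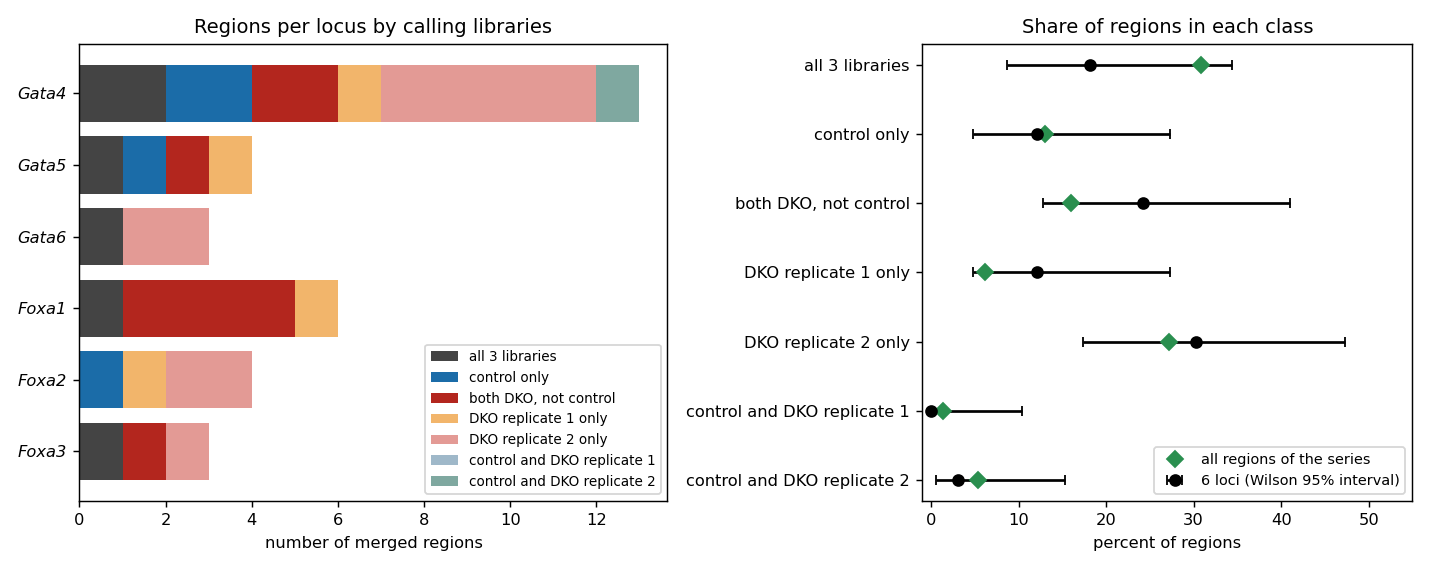
Left, the number of merged regions at each gene, coloured by the libraries that called them. Right, the percent of the 33 regions in each class (black, Wilson 95% interval) beside the percent of all 33564 regions (green); every interval includes the green value, and the 4 DKO-only regions of Foxa1 are the longest red segment on the left.

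Foxa1 encodes a pioneer factor of endoderm. Its locus held 6 regions, with 1 peak in the control and 6 and 5 in DKO replicates 1 and 2. The single control peak belonged to chr12:58647467-58648237, whose window began 372 bp upstream of the placed start site. The placed gene body extends past that start, and the region lay inside it, 0.776 kb from its end. Scores there were 32 in the control and 36 and 59 in DKO replicates 1 and 2, with ranks of 82.4, 77.1 and 95.8. The control rank lay between those of the DKO libraries, so the order of the libraries at the Foxa1 promoter did not follow genotype. Of all placed genes, 38.6% had a promoter peak in all 3 libraries, within 1 kb of a start site. Within 500 bp the Foxa1 start had one in the DKO libraries only. The control window, from 58647637, still overlapped the DKO windows, from 58647467 and 58647584, so that difference rests on the limit. Foxa1 outranked 73.1% of the genes with a promoter peak in the control, and 61.4% and 91.4% of those with one in DKO replicates 1 and 2. The region also overlaps one end of Ttc6, a gene that neighbours Foxa1.

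The other 5 regions at Foxa1 had no control peak, and 4 of them were DKO-only. The nearest to the gene, chr12:58635765-58636373, lay 5.24 kb beyond the gene's lower-coordinate end, downstream of the start, and scored 20 (rank 34.0) and 32 (rank 75.3) in DKO replicates 1 and 2. The upstream region chr12:58673177-58673859, which lay inside the body of Ttc6, scored 23 (rank 46.1) and 31 (rank 73.6). Both ranked higher in the list of DKO replicate 2 than in that of DKO replicate 1. Further downstream, chr12:58616347-58617372 scored 14 (rank 5.61) and 24 (rank 57.7). The most distant, chr12:58597385-58598016, scored 13 (rank 2.57) and 19 (rank 40.2). In DKO replicate 1 these last regions are among the weakest peaks called, near the lowest score in that list, 11. The nearest control peak was 11264 to 49621 bp away from each of the 4. Another region, called in DKO replicate 1 only, lay 27.8 kb beyond the gene at rank 52.6, also inside the body of Ttc6.

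The set of 4 DKO-only regions at Foxa1 depended on list length. With the 16977 top-scoring peaks of each library, 2 stayed DKO-only, the nearest downstream one and the upstream one, and the 2 weakest were then called in DKO replicate 2 only. With a score of at least 21 in every library, 1 stayed DKO-only. Over 19432 protein-coding genes placed in the same way, 150 (0.772%) had 4 or more DKO-only regions within 50 kb. That threshold was chosen after the Foxa1 count had been seen, and neighbouring genes share regions, so the share describes the locus and tests nothing.

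Foxa2, the sister factor of Foxa1, had no region called by more than 1 library, and so no peak that was found again in any other library. Over all placed genes, 20.5% of loci likewise had no region called by more than 1 library. The control peak at chr2:147849673-147850273 scored 15 (rank 17.0). The peak of DKO replicate 1 at chr2:147865753-147866353 scored 16 (rank 14.4). DKO replicate 2 had a peak with score 15 (rank 19.8) at chr2:147818568-147819168 and one with score 13 (rank 8.99) at chr2:147871048-147871648. The last overlapped a Foxa2 start site, and 2.41% of genes with a promoter peak in that library ranked lower. All Foxa2 peaks thus had a rank of 19.8 or lower, and with equal list lengths DKO replicate 2 had none left. The lowest score kept there was 18 in DKO replicate 2 and 10 in the control. The control peak with a score of 15 therefore stayed, while the DKO replicate 2 peak with the same score was dropped.

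Foxa3, the family member best known from liver, had 1 region called in all libraries, chr7:19609278-19609930. Its window lay 350 bp upstream of the placed Foxa3 start and also covered a start site of the neighbouring gene Sympk, which encodes the RNA 3′-end processing scaffold symplekin, so the peak cannot be assigned to either promoter. It scored 24 in the control and 48 and 38 in DKO replicates 1 and 2. The ranks were 62.4, 89.6 and 83.3, so the control lay below both DKO libraries. The gaps were -27.3 and -21.0 points against 6.30 points between the DKO libraries, and both exceeded the SD of 18.7 points. It was the only one of the 6 shared regions to do so, where 17.9% of shared regions in the series did in that direction and 4.44% in the other. With equal list lengths the ranks were 62.4, 88.8 and 73.8, and the gap to DKO replicate 2 no longer exceeded that SD. At a score of at least 21 in every library the control rank fell to 27.4, and the control minus the DKO mean was -49.0 points in place of -24.1. That cut is the control median, while the DKO medians are 24 and 22, so it shortens the lists unequally. The control score of 24 lies just above the cut, so this gap cannot be compared with that of the full lists.

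The DKO-only region at the Foxa3 locus, chr7:19576192-19576808, scored 35 (rank 75.6) and 26 (rank 63.0). It overlapped a start site of Mypop, another neighbour, 21.9 kb beyond the Foxa3 body. A peak of DKO replicate 2 alone at rank 60.5 lay 6.18 kb beyond the Foxa3 body, within the body of Irf2bp1. With 6 other protein-coding genes overlapping the locus, none of the 3 regions lay inside Foxa3 itself.

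**Figure D2:**
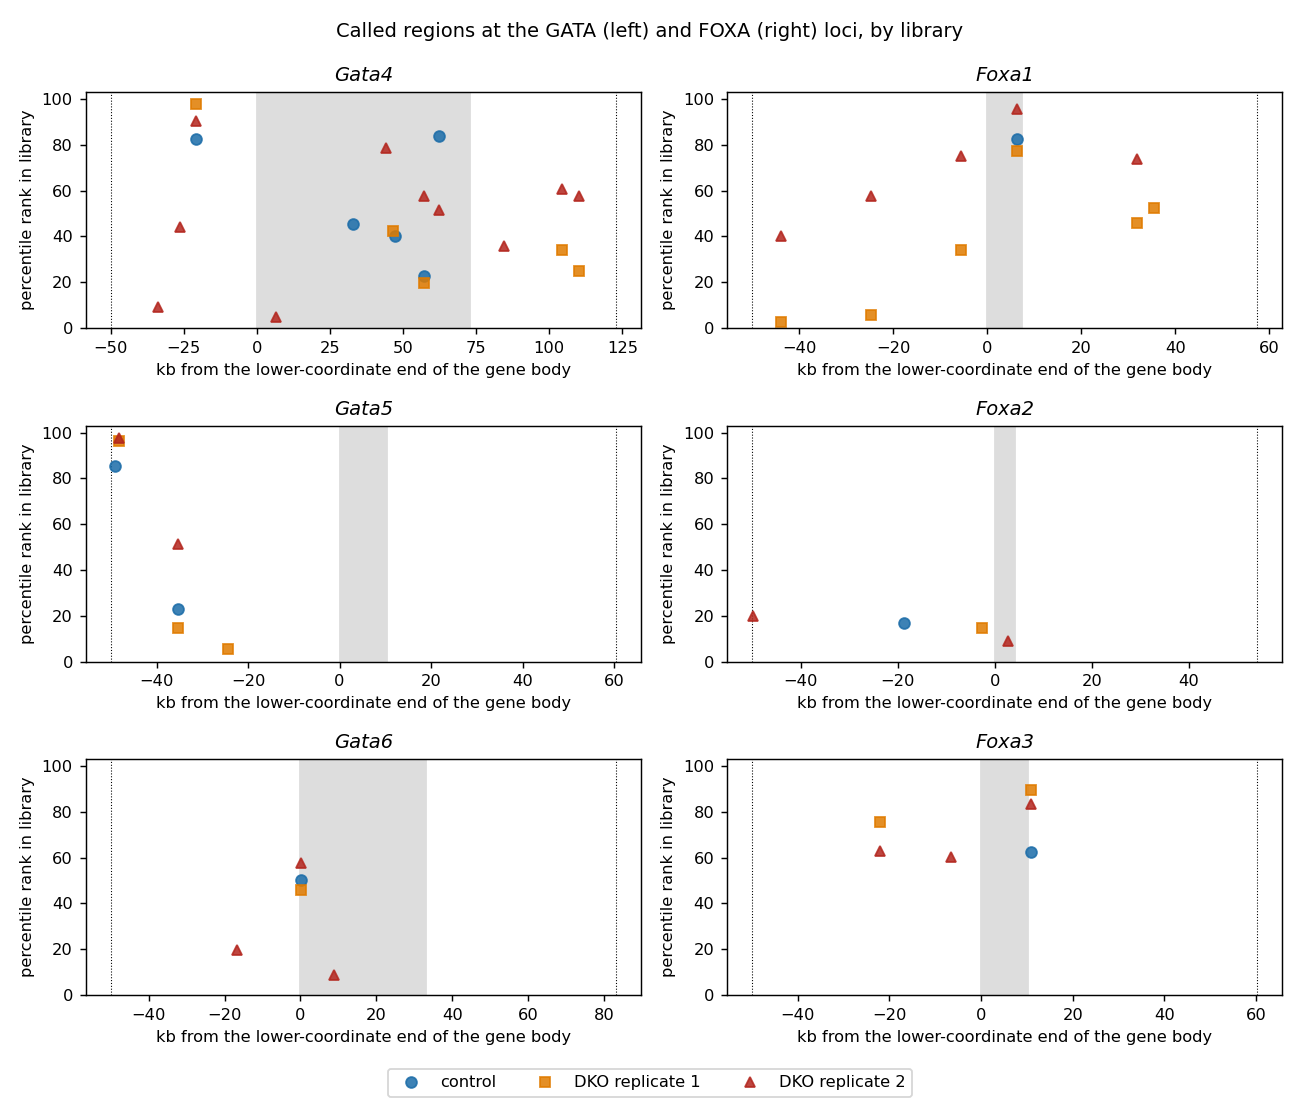
Each panel plots the regions of 1 locus by the distance of their centre from the lower-coordinate end of the gene body (x axis, kb) and by the percentile rank in each library (y axis; control, blue circles; DKO replicate 1, orange squares; DKO replicate 2, red triangles). Grey marks the gene body and dotted lines the limit of 50 kb; Foxa1 shows 1 blue circle among 6 regions, whereas all Foxa2 symbols are at a rank of 19.8 or lower.

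Gata4, the factor of proximal small-intestinal identity, had the longest locus (172.8 kb) and the most regions, 13, a number reached or exceeded by 0.499% of placed gene loci. That share takes no account of locus length, and 8 of the 13 regions were called in 1 library only. Its number of regions called in all libraries, 2, was reached or exceeded by 41.2% of loci. The control and DKO replicate 1 had 5 peaks each, and DKO replicate 2 had 10. Its highest-ranked region, chr14:63796411-63797098, was called in all libraries with scores of 32, 72 and 46 in the control and DKO replicates 1 and 2. The ranks were 82.4, 97.8 and 90.2. The control was the lowest of the 3, but its difference from DKO replicate 2 was -7.77 points, smaller than the replicate SD. This region lay 20.6 kb beyond the Gata4 body and inside the body of Fdft1, the squalene synthase gene, 3.42 kb from one of its ends.

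Inside the Gata4 body, chr14:63874299-63875305 was called in all libraries with a rank of 22.8 in the control and ranks of 19.6 and 57.7 in DKO replicates 1 and 2. The DKO libraries, replicate 1 minus replicate 2, differed there by -38.1 points, and the control minus DKO replicate 1 was 3.26 points. The region chr14:63879588-63880400 scored 33 (rank 84.0) in the control and 22 (rank 51.4) in DKO replicate 2, with no peak in DKO replicate 1 within 4689 bp. This was the strongest control peak at the Gata4 locus, and the DKO libraries disagreed on its presence.

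Both control-only regions at Gata4 were inside the gene body. The first, chr14:63850166-63850766, scored 20 (rank 45.5), and the nearest DKO peak was 10794 bp away. The second, chr14:63864632-63865232, scored 19 (rank 40.3) and lay 165 bp from a peak of DKO replicate 1 with a score of 22 (rank 42.4). When gaps of up to 1 kb were joined, 1 control-only region was left at Gata4. The 2 DKO-only regions lay 31.3 and 37.0 kb beyond the body on its higher-coordinate side. Their scores were 20 and 25 at chr14:63921885-63922518 and 18 and 24 at chr14:63927533-63928316, for DKO replicates 1 and 2. Both ranked in the lower part of the list of DKO replicate 1, at 34.0 and 24.7, and in the middle of that of DKO replicate 2, at 60.5 and 57.7. The 5 regions called in DKO replicate 2 alone ranked from 4.72 to 78.4.

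Gata5 had no peak within its body and none within 1 kb of its start site in any library. Over 15936 genes with a placed start site, the share with such a peak was 42.5% for the control and 48.8% and 50.6% for DKO replicates 1 and 2, and 44.9% had it in no library. All 4 regions of the locus lay on the downstream side, 34.0 to 58.7 kb from the start, and 3 of them inside the body of the neighbouring gene Rbbp8nl. The control-only region chr2:180010421-180011021 scored 34 (rank 85.6). The DKO-only region chr2:180011406-180012106 scored 63 (rank 96.1) and 66 (rank 97.4) in DKO replicates 1 and 2. They are the strongest peaks of the control and of DKO replicate 2 at any of the 6 loci, and the windows are 385 bp apart. The start site nearest to both regions was that of another gene, Cables2, at 2183 and 3168 bp. Neither region can therefore be assigned to Gata5. Both regions are in opposite classes because the windows do not overlap, and a gap of up to 1 kb made them 1 region called in all 3 libraries. The third region, chr2:180024170-180025016, was shared by all libraries with scores of 16, 16 and 22. Its control rank was 22.8 and its DKO ranks were 14.4 and 51.4, with the control between the DKO libraries. With equal list lengths the DKO ranks were 7.93 and 23.7, still on either side of the control, and the control minus the DKO mean turned from -10.1 to 7.04 points. The fourth, called in DKO replicate 1 alone, had a score of 14 (rank 5.61).

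Gata6, the GATA factor expressed along the gut epithelium, had 1 peak in the control and 1 and 3 peaks in DKO replicates 1 and 2. The shared region, chr18:11052150-11052907, covered one end of the placed gene body. That end was itself among the 10 points that set the offset, against 9 for the runner-up. Without the gene's own ends the offset tied at 9 against 9, so this overlap was partly set by the placement. Its scores were 21, 23 and 24 in the control and DKO replicates 1 and 2. The ranks were 50.4, 46.1 and 57.7, the narrowest spread of the 6 shared regions (DKO replicate 1 minus replicate 2, -11.7 points), and the control lay between the DKO libraries. With equal list lengths the ranks were 50.4, 41.9 and 33.6, so the control then lay above both DKO libraries, and the control minus the DKO mean was 12.6 points in place of -1.48. The other regions were called in DKO replicate 2 alone, with scores of 15 (rank 19.8) and 13 (rank 8.99), and neither was left with equal list lengths. No protein-coding neighbour overlapped this locus.

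Across the 6 shared regions, the control rank minus the mean DKO rank had a median of -10.8 points, against -5.05 points over all shared regions of the series. The control lay below both DKO ranks at 2 of the 6, the distal Gata4 region and the Foxa3 region, where 51.1% of all shared regions did. At the other 4 it lay between the DKO ranks. With equal list lengths it lay between them at 3, the Gata4 body region, Gata5 and Foxa1, and above both at Gata6. The sign of the median depended on the DKO library: it was 3.80 points against DKO replicate 1 alone and -13.4 points against DKO replicate 2 alone. With equal list lengths it was -1.34 points. No shared region had a control rank 25 points or more above or below both DKO ranks. Over the series, 12.3% of shared regions were lower by that much and 2.63% were higher.

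**Figure D3:**
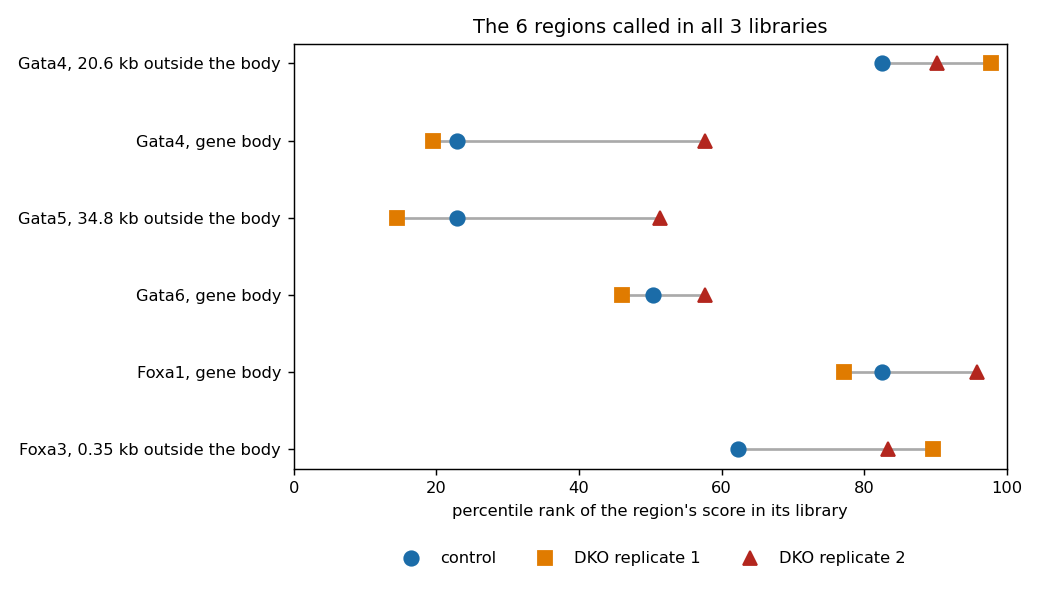
Percentile rank (x axis) of the 6 regions called in all 3 libraries, 1 line per region, with the control in blue and the DKO libraries in orange and red. The blue circle lies between the DKO symbols at 4 regions and to the left of both at the distal Gata4 region and at Foxa3, where the control is at 62.4.

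The limit of 50 kb decided membership for a few peaks. Just inside were the Foxa2 region at 49.5 kb, called in DKO replicate 2 (rank 19.8), and the control-only Gata5 region at 48.8 kb (rank 85.6). Just outside were a DKO-only region 51.2 kb from Gata5, with ranks of 94.3 and 90.2 in DKO replicates 1 and 2, and a region 52.1 kb from Foxa3 called in all libraries. The latter had a control rank of 40.3 and DKO ranks of 61.2 and 63.0. The region outside the Gata5 limit covered the placed start site of Cables2, so it cannot be assigned to Gata5.

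Promoter peaks of related genes were counted for comparison, within 1 kb of a start site. Among 6 placed GATA relatives and partners, 4 had a peak in each library (Gata3, Gatad2a, Gatad2b and Zfpm1), and none differed in presence. Among 12 placed forkhead relatives, 4 had a peak in the control and 6 in each DKO library, with 3 in common to all libraries (Foxd2, Foxk2 and Foxo1), and Foxp1 and Foxp4 had one in both DKO libraries only. Among 14 other factors of gut endoderm, 7 had a peak in the control and 9 in each DKO library, and Tcf7l2, an effector of Wnt signalling, had one in both DKO libraries only. No gene of these lists had a promoter peak in the control only. Few placed genes can have one in the control only, since 42.5% had one in the control and 38.6% had one in all 3 libraries. The shares of all placed genes with one in the control only, or in both DKO libraries only, are not given here. These list counts therefore have no background share of their own, and they are no pattern particular to the lists. Over all placed genes the share with a promoter peak was also lower in the control (42.5%) than in the DKO libraries (48.8% and 50.6%).

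Promoter peaks of marker genes were examined as a check of the labelled epithelium. Of 8 placed epithelial markers, 3 had a peak in the control (Cdx2, Cldn3 and Epcam) and 6 in each DKO library, with Cldn4 and Cldn7 in both DKO libraries only. Of 7 mesenchymal and muscle markers, 1 had a peak in DKO replicate 1 and none in the other libraries. Of 2 neural markers, Elavl4 had a DKO-only promoter peak. Of 7 endothelial and blood markers, Runx1 had a peak in every library and the rest had none, and of 5 markers of other endoderm 1 had a peak, in DKO replicate 2. The epithelial count thus moved in the same direction as the peaks at Foxa1. The share of all placed genes with a promoter peak moved that way too, from 42.5% in the control to 48.8% and 50.6% in DKO replicates 1 and 2. The direction was therefore not particular to epithelial markers, and any part of their count in the Foxa1 peaks was not tested.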

How the data were processed

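Each library has 1 deposited peak list. The authors gave every peak a window of 601 bp and a score, a whole number whose meaning the deposited lists do not state. The submitters' processing notes name Bowtie2 2.2.6, MACS 1.4.1 and the build mm9, without parameters; treatment of duplicate reads and any Tn5 shift are not given in the sources used here. Coordinates are the authors', with 1-based starts.

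Gene positions were at hand only for GRCm38.p6. Following the rule for the loci, each gene was shifted by the offset within 8 Mb that put a peak centre within 300 bp of the most start sites over the surrounding 5 Mb (chromosome 18: gene ends). Offsets from 5 and 10 Mb differed by at most 68 bp. Between 9 and 33 sites backed each offset, against 5 to 11 for the runner-up; Gata6 (10 against 9) and Gata4 (9 against 7) were closest. Simulated windows with known offsets were used to test the search. A larger share of sites carried a peak there than backed the offset at Gata4 (9 of 41) or Gata6 (10 of 53). The simulation therefore cannot decide whether these 2 placements are right. Of 21577 genes, 90.1% were placed, where both windows gave the same offset within 500 bp. Start sites are therefore placed, not annotated, positions.

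Regions were peaks overlapping by at least 1 bp, and a region took its highest score per library. Described singly were promoter regions, the highest-ranked region per locus, all control-only and DKO-only regions, and shared regions shifted by 25 points; others were added after their values were seen. Groups came from sample titles. Members and lists were chosen with earlier results of these data known. Python 3.11.15, pandas 2.3.3 and scipy 1.17.1 were used. Alternatives are given in the closing section.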

Additional observations from a re-analysis of the deposited data

How the results depend on the processing

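With the 16977 top-scoring peaks of each library, the counts over the 6 loci stayed within 1.5 times of their values. There were 11, 16 and 18 peaks in the control and DKO replicates 1 and 2, and 6 DKO-only, 4 control-only and 6 shared regions. The series shares were 13.2%, 20.7% and 34.4% of 26752 regions, while fewer member regions than in the full lists had any peak left. No share of the member regions left was computed to set beside them. A score of at least 21 gave 6, 9 and 16 peaks, 1 control-only region and 3 DKO-only regions. A flank of 25 kb left 4 DKO-only regions. A flank of 100 kb gave 23, 32 and 43 peaks, 13 shared and 9 control-only regions. Joining gaps of up to 1 kb, an alternative added once the lists were known, left 2 control-only regions. Leaving out DKO replicate 1 or 2 gave 12 to 18 regions called in the DKO library and not in the control, 4 to 5 control-only and 6 to 7 shared regions, and a median rank difference of -13.4 to 3.80 points. At Foxa1, a promoter peak within 500 bp of the start was missing from the control, while limits of 1 and 2 kb found one in each library. The control window there overlapped the windows of both DKO libraries.

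Offsets from the surrounding 2 Mb could not be set for Gata4 and Foxa1, which lie among few start sites; for the other 4 genes no count changed by more than 1.5 times. Offsets from 10 Mb changed no result past that range, and leaving out a gene's own start sites left Gata6 with a tie (9 against 9) and so without a value. No paired analysis was possible because only the DKO libraries are numbered and a single control exists. Unknown read depth limits every statement that a peak is absent: the weakest peaks here, with scores of 12 to 16, are close to the lowest scores called (10, 11 and 9).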
